A study of Homo sapiens with 12 samples.

Results

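The Siglec genes described here are 9 members of 1 family, CD33, SIGLEC1, SIGLEC5, SIGLEC6, SIGLEC7, SIGLEC8, SIGLEC9, SIGLEC10 and SIGLEC11. They were taken by symbol from a table of 36601 Ensembl gene IDs, and all 9 were found and passed the filter on low counts. RNA was sequenced as single reads in 12 libraries of 1 labelled batch, all made from wild-type H9, which is an established line of human embryonic stem cells. The labels put 3 libraries each at day 10 (hematopoietic progenitor cells), day 15 and day 20 (T progenitor cells on both days) and day 25 (mature γδ T cells). The stem cells were grown on mouse embryonic fibroblast feeders. All groups share a start in CHIR99021, BMP4, Activin A and Rock inhibitor, followed by VEGF and bFGF and then by Flt3L, IL-7, SCF and SB431542 up to day 10. Cells of the later days were then kept in MEM-α medium with serum, DLL4 (a ligand of Notch), SCF, Flt3L and IL-7. All groups come from a single cell line, and no sort for a cell type is named. Nothing in the labels ties the 3 libraries of a day to separate cultures, and p-values therefore measure the spread among libraries, part or all of which may be technical.

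Siglecs are cell-surface lectins of the immunoglobulin superfamily that bind sialic acid, the sugar that caps many glycans. Most members carry tyrosine motifs in the cytoplasmic tail that are phosphorylated by Src family kinases and then recruit the phosphatases encoded by PTPN6 and PTPN11, which dampens signalling. A few pair instead with the activating adaptor encoded by TYROBP. In blood the family is known mainly from myeloid cells, B cells and natural killer cells, and resting human T cells carry little of it.

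Each library held between 27026196 and 39811230 counts. Levels are CPM, counts scaled to a common library total after correction by edgeR's TMM factors. The label of the last day was set against marker genes. At day 25 the 11 T-cell marker genes summed to between 16.1 and 18.6 CPM per library. TRGC1 (10.0 CPM) and TRGC2 (4.9 CPM) were the highest of them, and CD3D and CD3G had 0 counts. The T-cell sum was between 3.18 and 4.04 CPM at day 10 and between 39.9 and 44.6 CPM at day 20. At day 25, 12 monocyte and macrophage markers summed to between 5332 and 5477 CPM and 10 neutrophil markers to between 7847 and 8014 CPM. In bulk RNA more cells of a type and more RNA per cell cannot be told apart.

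Of the 9 genes, 8 lie on chromosome 19 in GRCh38 and SIGLEC1 on chromosome 20 (3686970 to 3707128, minus strand). SIGLEC11 (49948985 to 49961172) stands apart from the other 7, which run from the start of SIGLEC9 at 51124908 to the end of SIGLEC5 at 51645545. Related genes in this cluster share sequence, which bears on how reads can be assigned. Of all 50-base windows of the longest coding transcript, 0.0% occurred in a transcript of another gene for SIGLEC1, 0.6% for SIGLEC8, 1.4% for SIGLEC9 and 1.7% for CD33. The share was 17.9% for SIGLEC6, 22.1% for SIGLEC10 and 25.0% for SIGLEC7, mostly through antisense genes that overlap their exons, and the strand setting of the counting is not given. It was 39.1% for SIGLEC11, mainly with SIGLEC16, and 82.2% for SIGLEC5, of which SIGLEC14 and a read-through gene model cover the most. Values of SIGLEC5, SIGLEC14 and SIGLEC11 are therefore uncertain in how reads were split, and SIGLEC16 and the read-through model are not analysed here. The antisense genes over SIGLEC6, SIGLEC7 and SIGLEC10 themselves held at most 6.59% of the counts of their partner on any day.

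The sequence 250 bases upstream of the start site shows how close some of these genes are, and is given for the genes whose levels are set against each other below. Sequences are from RefSeq (GRCh38.p14), which held 8 of the 9 members, and are written 5′ to 3′ on the strand of the gene. RefSeq start sites can differ from the ends of the gene models used above. The SIGLEC5 stretch lies inside its gene model, which runs from 51611927 to 51645545. The SIGLEC7 stretch (51142209 to 51142458, not printed) overlaps its gene model, which starts at 51142299. For SIGLEC5 (chr19:51630402-51630651, minus strand) and SIGLEC14 (chr19:51646826-51647075, minus strand), capitals mark every run of at least 15 bases found in both.
SIGLEC5: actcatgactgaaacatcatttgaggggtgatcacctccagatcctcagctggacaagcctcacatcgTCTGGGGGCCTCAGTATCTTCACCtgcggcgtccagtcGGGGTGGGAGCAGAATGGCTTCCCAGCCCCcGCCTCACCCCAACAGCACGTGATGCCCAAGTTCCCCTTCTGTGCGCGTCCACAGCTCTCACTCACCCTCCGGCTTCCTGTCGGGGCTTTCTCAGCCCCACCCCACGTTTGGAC
SIGLEC14: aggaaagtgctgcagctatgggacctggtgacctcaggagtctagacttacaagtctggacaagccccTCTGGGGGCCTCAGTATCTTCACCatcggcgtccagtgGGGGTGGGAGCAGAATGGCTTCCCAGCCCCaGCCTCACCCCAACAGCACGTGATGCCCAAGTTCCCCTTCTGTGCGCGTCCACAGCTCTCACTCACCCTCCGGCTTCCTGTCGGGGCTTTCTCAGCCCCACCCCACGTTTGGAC
These promoters were identical at 84.6% of positions when the 250 bases were aligned end to end, and 167 bases of each fell in shared runs. That was the highest value among the family's promoters by this measure, which depends on where the start site is placed. SIGLEC7 and SIGLEC9 scored 46.5%, though a related stretch lies in both at different distances from the start site. SIGLEC8 (chr19:51458455-51458704, minus strand), SIGLEC12 (chr19:51501801-51502050, minus strand) and SIGLEC9 (chr19:51124630-51124879, plus strand) formed the next group by this measure. Capitals mark runs of at least 15 bases found in at least 1 other of the group.
SIGLEC8: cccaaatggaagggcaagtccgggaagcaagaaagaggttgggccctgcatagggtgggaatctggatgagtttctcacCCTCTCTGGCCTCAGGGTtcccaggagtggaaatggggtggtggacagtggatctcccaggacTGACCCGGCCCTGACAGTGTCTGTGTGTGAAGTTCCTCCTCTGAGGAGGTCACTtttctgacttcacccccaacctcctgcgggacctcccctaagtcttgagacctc
SIGLEC12: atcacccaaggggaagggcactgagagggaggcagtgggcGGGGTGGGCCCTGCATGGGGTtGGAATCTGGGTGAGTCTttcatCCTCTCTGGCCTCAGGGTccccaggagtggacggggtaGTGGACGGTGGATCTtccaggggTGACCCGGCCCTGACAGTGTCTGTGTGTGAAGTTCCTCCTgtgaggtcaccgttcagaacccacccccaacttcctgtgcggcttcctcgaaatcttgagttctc
SIGLEC9: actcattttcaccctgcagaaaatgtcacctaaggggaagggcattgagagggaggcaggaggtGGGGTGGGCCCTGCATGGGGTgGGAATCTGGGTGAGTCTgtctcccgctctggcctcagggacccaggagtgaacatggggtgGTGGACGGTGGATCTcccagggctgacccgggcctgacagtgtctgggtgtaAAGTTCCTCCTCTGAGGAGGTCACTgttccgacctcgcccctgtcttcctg
The SIGLEC8 and SIGLEC12 promoters were identical at 78.4% of aligned positions, SIGLEC9 and SIGLEC12 at 70.6%, and SIGLEC9 and SIGLEC8 at 68.1%. CD33 (chr19:51224830-51225079, plus strand) is shown because it was the only 1 of the 8 members with a match to a motif searched for, in capitals.
CD33: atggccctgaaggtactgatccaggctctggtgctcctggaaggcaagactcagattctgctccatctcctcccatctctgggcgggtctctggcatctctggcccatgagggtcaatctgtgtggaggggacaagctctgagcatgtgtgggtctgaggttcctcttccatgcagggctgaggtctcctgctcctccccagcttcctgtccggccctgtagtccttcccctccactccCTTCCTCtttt
The match is to GAGGAAG, a motif of the myeloid factor PU.1, on the opposite strand, 11 to 5 bases upstream of the start site. SIGLEC12, which is not among the 9, held the same motif on the opposite strand, 23 to 17 bases upstream, in lower case above. Over all 35116 promoters of this length and on both strands, 11.2% held GAGGAAG, 9.2% the GATA motif AGATAA, 11.0% the RUNX motif TGTGGT and 9.1% the C/EBP motif TTNNGCAA. A match is a description of the letters and does not show binding.

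All 9 genes differed among the 4 days (edgeR's quasi-likelihood F test, Benjamini-Hochberg adjusted p of 2.3e-09 or below), on a background of 90.5% of the 20183 genes tested. The sum of the 9 was 62.1 ± 1.18 CPM at day 10, climbed through 187 ± 10.2 (day 15) to 565 ± 10.8 (day 20) and was 413 ± 1.27 on the last day (SD, n = 3 libraries per day). No member had its highest level at day 10 or 15. SIGLEC1, SIGLEC6, SIGLEC8 and SIGLEC10 were highest at day 20, and SIGLEC5, SIGLEC7, SIGLEC9 and SIGLEC11 at day 25. The libraries of CD33 overlapped between these days.

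**Figure D1:**
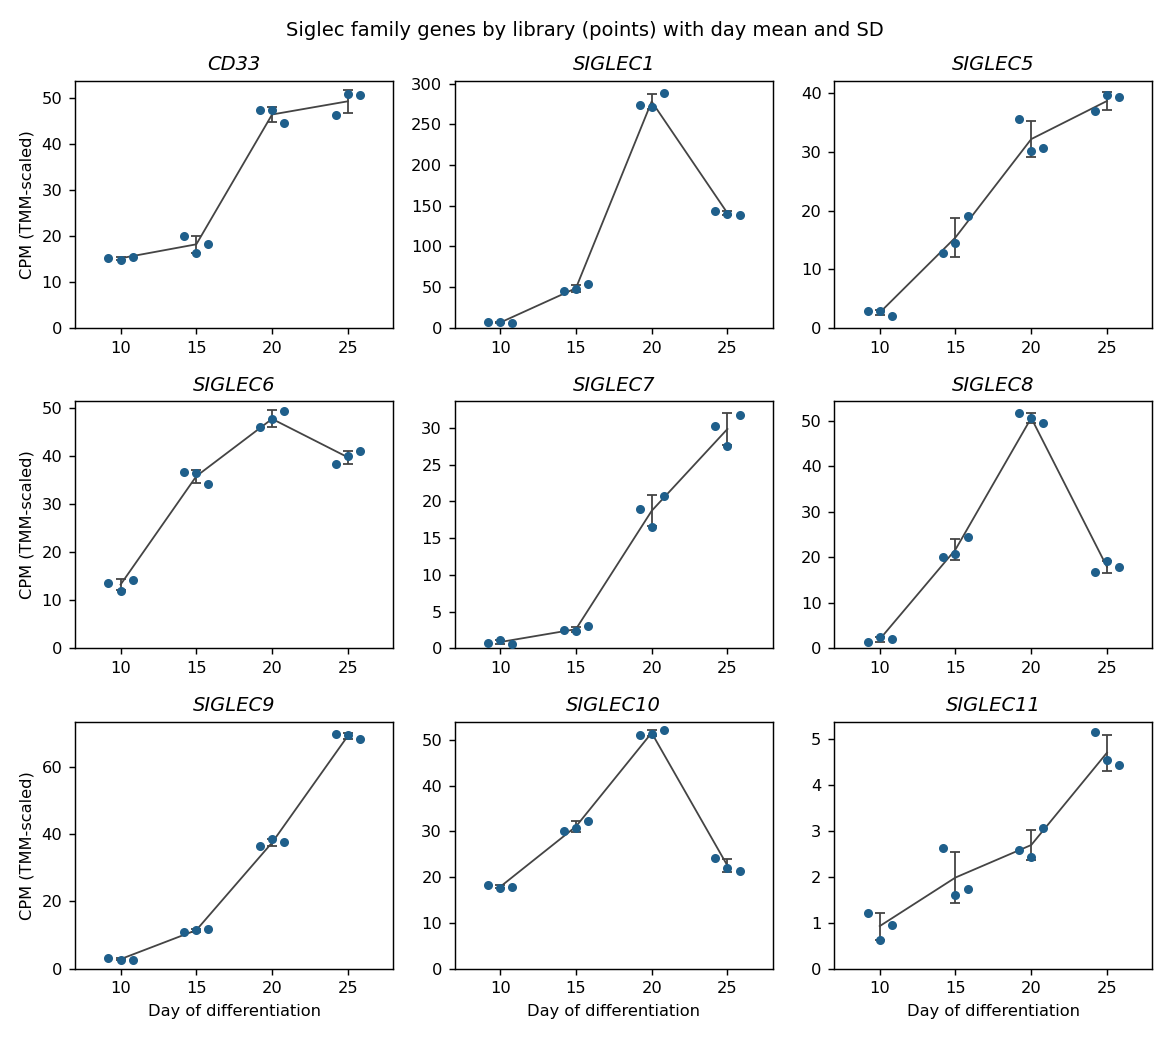
CPM (TMM-scaled, linear axes from 0) of the 9 Siglec genes against day of differentiation, with points for the 3 libraries of a day and a line with bars for the day mean and SD. SIGLEC1, SIGLEC8 and SIGLEC10 peak at day 20, while SIGLEC7 and SIGLEC9 climb to day 25.

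The composition of the family changed along with its sum. At day 10 SIGLEC10 (28.9% ± 0.0513), CD33 (24.3% ± 0.511) and SIGLEC6 (21.3% ± 1.71) made up most of the summed CPM (SD, n = 3). SIGLEC1 went from 10.6% ± 0.917 at day 10 to 49.2% ± 0.836 at day 20 and 34.2% ± 0.74 at day 25. SIGLEC9 held 4.6% ± 0.535 at day 10 and 16.7% ± 0.218 at day 25. These shares of CPM are not corrected for transcript length, and SIGLEC1 has the longest exons of the family (7886 bases merged).

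Per kilobase of merged exon, SIGLEC6 (5.15 ± 0.453 CPM per kilobase) and SIGLEC10 (4.89 ± 0.0989) led at day 10, and their libraries overlapped. SIGLEC6 led at day 15 with 13.9 ± 0.532 CPM per kilobase, clear of SIGLEC10 at 8.47 ± 0.305. SIGLEC1 led at day 20 with 35.3 ± 1.24, clear of SIGLEC6 at 18.6 ± 0.681. SIGLEC9 led at day 25 with 27.2 ± 0.319, clear of SIGLEC1 at 17.9 ± 0.337. At that day SIGLEC5 (16.4 ± 0.633) overlapped with SIGLEC6 (15.4 ± 0.532), and SIGLEC6 with SIGLEC7 (14.6 ± 1.05), so neighbours in this order were not resolved. SIGLEC11 was lowest per kilobase on every day, from 0.292 ± 0.0914 to 1.48 ± 0.122, though at day 10 its libraries overlapped with those of SIGLEC7.

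**Figure D2:**
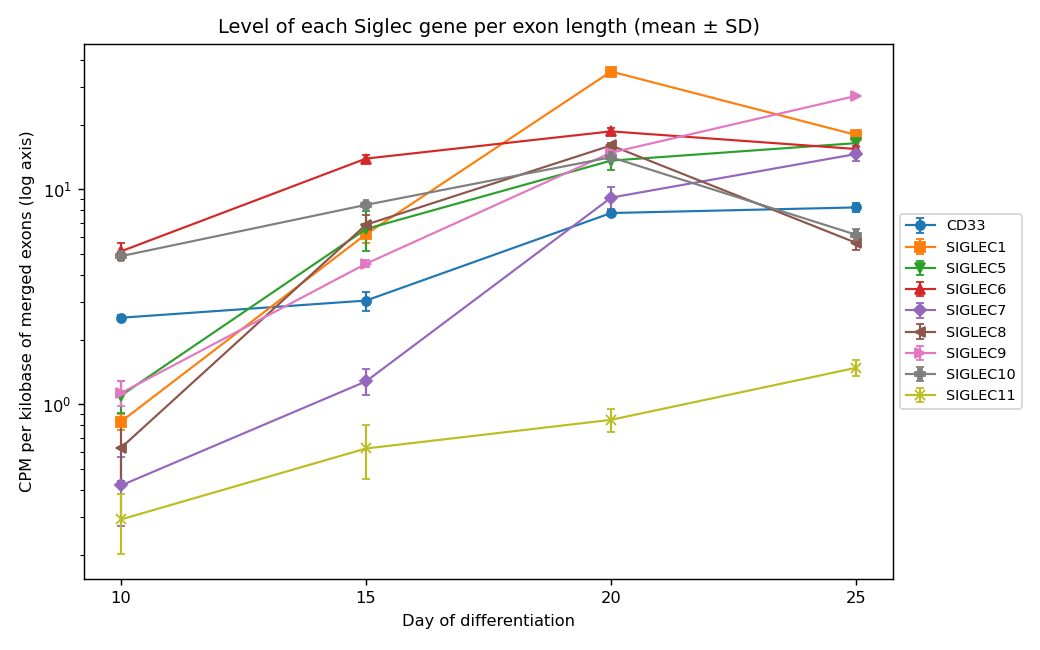
CPM per kilobase of merged exons (log axis) against day for the 9 genes, as day means with SD bars (n = 3 libraries). The leading gene passes from SIGLEC6 at day 15 to SIGLEC1 at day 20 and SIGLEC9 at day 25, with SIGLEC11 lowest by mean throughout. At day 10 the libraries of SIGLEC6 and SIGLEC10 overlap, as do those of SIGLEC7 and SIGLEC11.

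Between day 10 and day 15, the first step in DLL4 medium, all 9 genes rose (with library size alone 7 rose and 1, CD33, fell), against 42.4% of all tested genes called higher and 30.8% called lower. Their median log2 fold change was 1.56, against 0.2 over all genes tested. SIGLEC8 rose most (10.7-fold) and CD33 least (1.21-fold), and 7 of the 9 rose at least 2-fold, as did 28.2% of all tested genes. Scaling by library size alone moves the median of all genes by -0.52 in this step, by 0.62 in the next and by -0.16 in the last. From day 15 to day 20, 8 of the 9 rose and none fell, against 40.6% higher and 36.0% lower among all genes, with a median of 1.22 against 0.1. The rise was at least 2-fold for 6 members and for 23.7% of all genes. SIGLEC11 was the member not called in that step, and it passed with library size alone. From day 20 to day 25 the family split, with SIGLEC5, SIGLEC7, SIGLEC9 and SIGLEC11 higher and SIGLEC1, SIGLEC6, SIGLEC8 and SIGLEC10 lower, against 24.5% and 25.1% of all tested genes (3 higher and 4 lower with library size alone). SIGLEC8 and SIGLEC10 were the 2 that fell at least 2-fold (6.86% of all genes), and no member rose that much (6.70% of all genes). Over the whole course, day 25 against day 10, all 9 were higher (background 38.6%, with 36.0% of all genes lower) and the median was 3.15 against 0.02. The fold ranged from 1.26 for SIGLEC10 to 33.5 for SIGLEC7, and 8 members were at least 2-fold higher (26.5% of all genes).

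**Figure D3:**
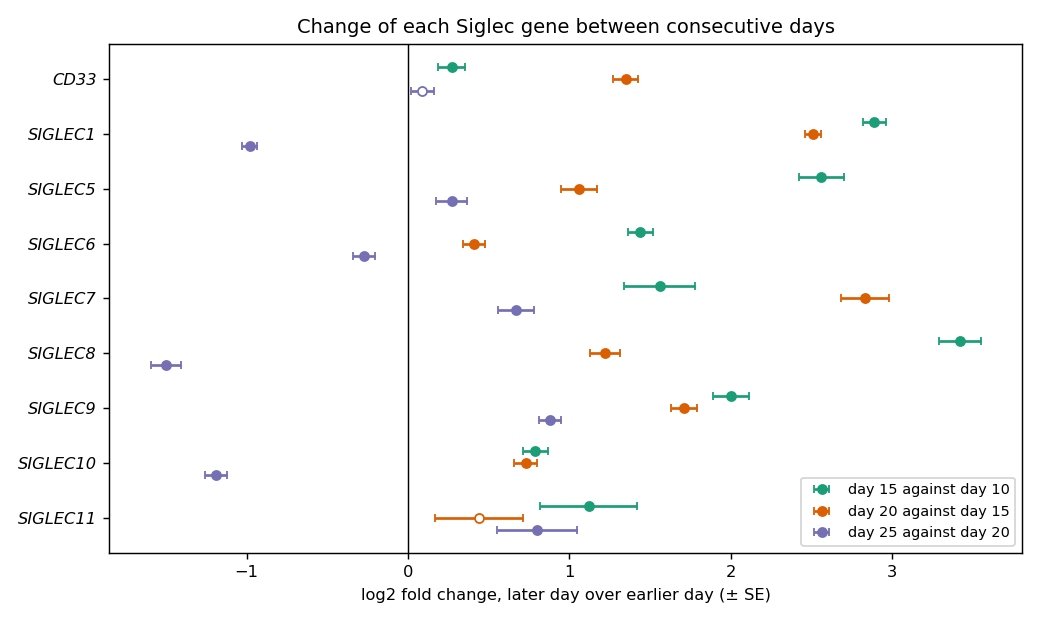
log2 fold change of the later over the earlier day, with its standard error, for the 9 genes in 3 consecutive steps, from edgeR's quasi-likelihood fit. Open points did not pass an adjusted p under 0.05. All points of the step to day 15 lie above 0 (CD33 below 0 with library size alone), and those of the step to day 25 fall on both sides.

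SIGLEC1 encodes sialoadhesin, a macrophage receptor with a long extracellular part and no inhibitory tyrosine motif of the usual kind. Its libraries read 6.76, 6.98 and 5.94 CPM at day 10, 45.2, 47.3 and 53.8 on day 15, 274, 271 and 289 on day 20, and 144, 140 and 139 at day 25. No days overlapped, with day 20 highest and day 25 between days 20 and 15. The log2 fold change was 2.89 ± 0.07 (SE) to day 15 and 2.51 ± 0.051 to day 20, then -0.98 ± 0.046 to day 25 (edgeR, adjusted p = 4.8e-22). The 12 monocyte and macrophage markers summed to between 105 and 114 CPM at day 10, 685 and 742 on day 15, 2809 and 2885 on day 20, and 5332 and 5477 at day 25. In the last step 9 of those 12 rose and 1 fell, against 24.5% and 25.1% of all tested genes. With library size alone 8 rose, CD163 not among them, and 2 fell. SIGLEC1 fell in that step, and the part of monocytes and macrophages in its level was not tested. The genes closest in course were GCNT1, a glycosyltransferase gene (2.38, 16.3, 80.6 and 51.7 CPM on the 4 days), and GAS6, the ligand gene of TAM receptors. Closeness is the root mean square difference of log2 CPM, each gene centred on its mean over the 12 libraries, and was 0.24 and 0.25 for these genes.

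CD33 encodes the surface marker of myeloid progenitors and monocytes that leukaemia antibodies target. It read 15.3, 14.7 and 15.4 CPM at day 10, 20.0, 16.3 and 18.2 on day 15, 47.3, 47.3 and 44.5 on day 20, and 46.3, 50.9 and 50.5 at day 25. Days 20 and 25 overlapped and stood above days 10 and 15. Most of the rise fell in the step to day 20 (log2 fold change 1.35 ± 0.077, SE, edgeR adjusted p = 7.5e-20). The step to day 15 was small (0.27 ± 0.083, adjusted p = 0.0037) and depended on the scaling, being a fall with library size alone (-0.26, adjusted p = 0.004). It did not pass without the filter on low counts (0.07) or with the libraries of these days alone (0.09). The step to day 25 did not pass (0.09 ± 0.069, edgeR adjusted p = 0.31), with a 95% interval of -0.05 to 0.22. SAT2 and BTN2A1 ran closest to CD33, each at a difference of 0.1.

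SIGLEC5 encodes an inhibitory receptor of neutrophils and monocytes. It read 2.89, 2.84 and 2.09 CPM at day 10, 12.8, 14.4 and 19.1 on day 15, 35.7, 30.2 and 30.7 on day 20, and 37.0, 39.8 and 39.3 at day 25. Each day stood above the one before without overlap, most clearly at day 15 (5.89-fold, edgeR adjusted p = 2.2e-19). The last step was 1.2-fold (adjusted p = 0.02). That call was lost with library size alone (log2 fold change 0.1), or without day 20 replicate 2 (0.22), day 20 replicate 3 (0.24), day 25 replicate 2 (0.25) or day 25 replicate 3 (0.26). The 10 neutrophil markers summed to between 447 and 469 CPM at day 10, 5340 and 5661 on day 15, 17849 and 18165 on day 20, and 7847 and 8014 at day 25. All 10 rose in each of the steps to day 20, against 42.4% and 40.6% of all tested genes. In the last step 5 rose (CSF3R, 1 of them, not with library size alone) and 5 fell, against 24.5% and 25.1%. The sum fell where SIGLEC5 did not, and its largest part was MPO, at 11859 CPM on day 20 and 4332 at day 25. The part of these markers in the level of SIGLEC5 was not tested. GLIPR2 (0.15) and the proton channel gene HVCN1 (0.2) ran closest to SIGLEC5.

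SIGLEC14, which is not among the 9, encodes the activating partner of the SIGLEC5 receptor, with a near-identical ligand-binding part and a link to the TYROBP adaptor. Its levels were 8.85 ± 1.75 CPM at day 10, 26.8 ± 1.04 at day 15, 50.7 ± 3.39 at day 20 and 42.4 ± 2.51 at day 25 (SD, n = 3). The ratio of SIGLEC14 to SIGLEC5 counts was 2.8, 3.82 and 3.63 at day 10, 2.07, 1.8 and 1.47 on day 15, 1.31, 1.74 and 1.72 on day 20, and 1.16, 0.999 and 1.14 at day 25. Day 10 lay above every other day and day 25 below, while days 15 and 20 overlapped. The ratio differed among days in an exact permutation test over all 15400 partitions of the libraries (p = 0.00026, adjusted 0.00039 over 3 ratios chosen after counts had been seen). Since these genes share windows with each other, the ratio also depends on how the counting treated shared reads, which was not tested.

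SIGLEC9 and SIGLEC7 are neighbours on chromosome 19 and encode inhibitory receptors, SIGLEC9 of neutrophils and monocytes and SIGLEC7 of natural killer cells and monocytes. SIGLEC9 read 3.3, 2.69 and 2.6 CPM at day 10, 11.0, 11.5 and 11.9 on day 15, 36.3, 38.5 and 37.5 on day 20, and 69.6, 69.5 and 68.2 at day 25. SIGLEC7 read 0.73, 1.2 and 0.641 CPM at day 10, 2.49, 2.32 and 3.01 on day 15, 18.9, 16.5 and 20.7 on day 20, and 30.2, 27.5 and 31.8 at day 25. Both rose in every step with no overlap between days. By day 25 SIGLEC7 stood 33.5-fold above day 10 (log2 fold change 5.07 ± 0.16, SE, edgeR adjusted p = 4.4e-29), from 90 counts over the day 10 libraries, and SIGLEC9 24.2-fold (4.59 ± 0.092, adjusted p = 1e-36). Their timing was not the same. SIGLEC9 rose 4.01-fold to day 15 and 3.27-fold to day 20, SIGLEC7 2.95-fold and 7.12-fold. The ratio of SIGLEC9 to SIGLEC7 counts was 3.6 ± 1.21 at day 10, 4.44 ± 0.496 at day 15, 2.02 ± 0.281 at day 20 and 2.33 ± 0.191 at day 25 (SD, n = 3), and differed among the 4 days (exact permutation test, p = 0.017, adjusted 0.017). The 7 natural killer markers summed to between 33.3 and 39.4 CPM at day 25, nearly all of it NCAM1 at 35.4 CPM, with KLRC1 and EOMES at 0 counts. Of the 4 natural killer markers tested, 2 were higher and 1 lower at day 25 than at day 10, on a background of 38.6% and 36.0%. The part of these markers in the level of SIGLEC7 was not tested. METRNL (difference 0.09) and the calcium-binding protein gene S100A11 (0.12) ran closest to SIGLEC9. FMN1 (0.2) and the scavenger receptor gene STAB1 (0.25), which reached 1120 CPM at day 25, ran closest to SIGLEC7.

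SIGLEC8 encodes the inhibitory receptor of eosinophils, mast cells and basophils. The gene read 1.33, 2.48 and 2.16 CPM at day 10, 20.0, 20.7 and 24.4 on day 15, 51.7, 50.6 and 49.5 on day 20, and 16.7, 19.2 and 17.8 at day 25. Day 20 was highest, and day 25 lay below day 15 without overlap in the TMM-scaled CPM. With library size alone the order of those days turned, day 15 standing 2.89 and day 25 standing 3.07 above day 10 on the log2 scale. It rose 10.7-fold and 2.33-fold and then fell 2.82-fold (log2 fold change -1.5 ± 0.093, SE, edgeR adjusted p = 8.6e-18). The summed markers of its cells moved beside it without the same course. The 9 eosinophil markers summed to between 110 and 120 CPM at day 10, 9568 and 10116 on day 15, 6051 and 6269 on day 20, and 941 and 961 at day 25. Single markers differed from day 15 to day 20, where 4 of the 9 rose, as SIGLEC8 did, and 5 fell. With library size alone 5 rose and 2 fell, and the background in that step was 40.6% higher and 36.0% lower. All 9 fell in the last step, against 25.1% of all tested genes. The 9 mast cell and basophil markers went from between 260 and 263 CPM at day 10 to between 437 and 468, 578 and 585, and 816 and 852. Of the 8 tested, 5 were higher and 1 lower in the last step, against 24.5% and 25.1% of all tested genes. The part of either cell type in the level of SIGLEC8 was not tested. The chemokine gene CCL2 (0.25) and the matrix gene MATN2 (0.26) ran closest to it.

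SIGLEC8 and SIGLEC9, whose promoters are shown above, moved apart in the last step. SIGLEC9 counts per SIGLEC8 count were 1.59 ± 0.773 at day 10, 0.53 ± 0.0378 at day 15, 0.741 ± 0.0333 at day 20 and 3.87 ± 0.276 at day 25 (SD, n = 3). The difference among the 4 days had an exact permutation p of 6.5e-05, the smallest the 15400 partitions can give (adjusted 0.00019). SIGLEC12, whose promoter scored closest to that of SIGLEC8 in the end-to-end alignment, had yet another course, described below.

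SIGLEC10 encodes an inhibitory receptor of B cells and monocytes that binds CD24. It read 18.3, 17.6 and 17.8 CPM at day 10, 30.1, 30.8 and 32.3 on day 15, 51.1, 51.3 and 52.2 on day 20, and 24.2, 22.1 and 21.3 at day 25. It rose 1.73-fold to day 15 and 1.66-fold to day 20, and fell 2.29-fold by day 25 (log2 fold change -1.19 ± 0.07, SE, edgeR adjusted p = 1.1e-18). With library size alone the log2 fold change was 0.26 to day 15 and 1.35 to day 20. Day 25 lay below day 15 in the TMM-scaled CPM, but with library size alone both stood 0.26 above day 10 on the log2 scale. Its day 25 level remained 1.26-fold above day 10 (adjusted p = 0.00013). The 6 B-cell markers summed to between 4.89 and 5.33 CPM at day 10, 11.1 and 11.6 on day 15, 5.23 and 5.85 on day 20, and 4.92 and 5.63 at day 25, with MS4A1 at 0 counts on 3 of the 4 days, and their part in the level of SIGLEC10 was not tested. The scaffold gene NHERF1 (0.1) and the kinase gene PLK2 (0.15) were closest in course.

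SIGLEC6 encodes an inhibitory receptor known from mast cells, B cells and the placental trophoblast. Its libraries read 13.6, 12.0 and 14.2 CPM at day 10, 36.7, 36.5 and 34.3 on day 15, 46.0, 47.8 and 49.5 on day 20, and 38.3, 40.0 and 41.0 at day 25. It rose 2.71-fold by day 15 (edgeR adjusted p = 8.7e-21) and 1.33-fold by day 20, and then fell 1.2-fold (adjusted p = 0.001). Which rise was larger depended on the scaling, since with library size alone the log2 fold change was 0.91 to day 15 and 1.04 to day 20. The 7 trophoblast markers summed to at most 11.6 CPM on any day, with CGB3 at 0 counts from day 15 on, and their part in the level of SIGLEC6, like that of the mast cell markers above, was not tested. TRIM14 (0.1) and PTPRF (0.12) had the nearest course.

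SIGLEC11 encodes a receptor of tissue macrophages and brain microglia. It read 1.21, 0.627 and 0.945 CPM at day 10, 2.62, 1.6 and 1.73 on day 15, 2.58, 2.44 and 3.05 on day 20, and 5.14, 4.53 and 4.42 at day 25. Its counts over the libraries of a day were 91, 138, 272 and 489. The rise by day 25 was 5.12-fold over day 10 (log2 fold change 2.36 ± 0.27, SE, edgeR adjusted p = 2.9e-10). Days 15 and 20 overlapped and did not pass (0.44 ± 0.27, adjusted p = 0.13, 95% interval -0.09 to 0.96). The call passed with library size alone (1.06), without the filter (0.67), or without day 15 replicate 1 (0.69), the highest library of its day. With library size alone its step to day 15 did not pass (0.58). SPIRE1 (0.21) and LMLN (0.24) ran closest to it. Its nearest member was CD33, at 0.45, and for every member at least 99 other genes ran closer than its nearest fellow member did.

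Of 6 other Siglec genes listed, 5 were in the table, and they did not move as a group. CD22, an inhibitory receptor of B cells, stood at 1.16 ± 0.192 CPM at day 10 and 54.1 ± 1.5 at day 15, then at 7.22 ± 0.68 and 17.0 ± 1.06 (SD, n = 3), a rise of 46.9-fold, a fall of 7.49-fold and a rise of 2.35-fold. MAG, a Siglec gene of myelin near CD22 on chromosome 19, was likewise highest at day 15, at 6.22 ± 0.289 CPM from 432 counts, against 20, 15 and 6 counts at days 10, 20 and 25. The 6 B-cell markers summed to between 11.1 and 11.6 CPM at day 15, and the 7 megakaryocyte and platelet markers to between 29301 and 30006 CPM, their highest of the 4 days. Eosinophil markers (9568 to 10116 CPM) and erythroid markers (649 to 681 CPM) were also highest at day 15. The part of any of these markers in the peaks of CD22 and MAG was not tested. None of the 9 members peaked at day 15.

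SIGLEC12, whose human product has lost the residue needed to bind sialic acid, was lower at day 25 than at day 10, where all 9 members were higher. It read 43.9, 46.7 and 48.4 CPM at day 10, 37.2, 38.3 and 39.5 on day 15, 39.0, 40.6 and 34.9 on day 20, and 12.5, 11.9 and 14.2 at day 25. Days 15 and 20 overlapped (edgeR adjusted p = 0.94), though with library size alone day 20 was higher (log2 fold change 0.62, adjusted p = 3.5e-10), and the larger fall came in the last step (2.98-fold, adjusted p = 3.7e-21). SIGLEC15, on chromosome 18, encodes a receptor of macrophages and osteoclasts that pairs with TYROBP. It was low until day 20 (0.199 ± 0.178, 0.483 ± 0.134 and 1.47 ± 0.31 CPM) and then rose 11.5-fold to 16.9 ± 1.25 CPM at day 25 (edgeR adjusted p = 3.5e-18). Over the whole course its log2 fold change of 6.27 ± 0.28 (SE) was larger than that of any of the 9 members, from 22 counts at day 10.

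**Figure D4:**
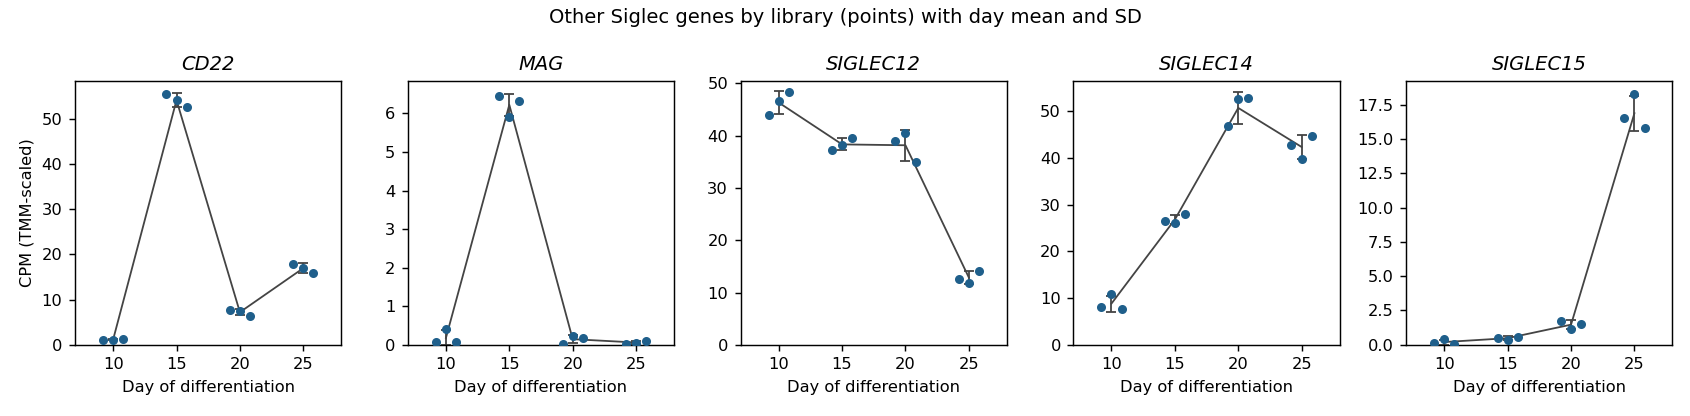
CPM (TMM-scaled, linear axes from 0) of CD22, MAG, SIGLEC12, SIGLEC14 and SIGLEC15 against day, with points for the 3 libraries and a line with bars for mean and SD. CD22 and MAG peak at day 15, SIGLEC15 is highest at day 25 and SIGLEC12 drops there.

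Genes of Siglec signalling moved in both directions. Of 12 tested genes for phosphatases, Src family kinases and related adaptors, 8 were higher and 4 lower at day 25 against day 10 (median log2 fold change 0.48, against 0.02 over all genes and a background of 38.6% higher and 36.0% lower). The myeloid Src family kinase gene FGR (3.39 ± 0.351 to 366 ± 5.25 CPM, 109-fold) was higher, as was SOCS3, a suppressor of cytokine signalling (35.9-fold). On the log2 scale PTPN6 was higher by 0.43 and PTPN11 changed by -0.72. From day 15 to day 20, 5 of the 12 rose and 7 fell (6 and 4 with library size alone), against 40.6% and 36.0% of all tested genes. SRC, the highest of the list at day 15 (1014 CPM), changed by -3.37 in that step and FYN by -4.11. TYROBP, the adaptor of SIGLEC14 and SIGLEC15, rose in every step, from 59.7 ± 2.22 to 85.9 ± 1.53, 265 ± 10.7 and 589 ± 8.37 CPM (SD, n = 3), though with library size alone its step to day 15 did not pass (-0.01). The kinase gene SYK, which acts downstream of that adaptor, was 1.36-fold lower at day 25 (edgeR adjusted p = 2.2e-15), and the adaptor gene HCST 1.6-fold higher.

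The genes that make and remove the ligand also changed. All 4 tested genes of sialic acid removal rose by day 15 and were higher at day 25 than at day 10 (3 of the 4 with library size alone), against 42.4% and 38.6% of all tested genes. The lysosomal sialidase gene NEU1 was 3.34-fold higher, the membrane sialidase gene NEU3 2.63-fold and CTSA, whose product protects the lysosomal enzyme, 2.71-fold. NEU2 had 0 counts in every library. CTSA peaked at day 15, at 812 ± 26.8 CPM against 114 ± 1.96 at day 10, and fell 3.04-fold by day 20. CMAS, which activates sialic acid for transfer, fell 4.75-fold from day 15 to day 20 and stood at 48.5 ± 2.67 CPM at day 25 against 219 ± 4.38 at day 10. NPL, a lyase that breaks sialic acid down, rose 9.66-fold over the course, and SLC17A5, which exports the sugar from lysosomes, 5.4-fold. Of the 7 genes of synthesis and transport, 4 were higher, 2 lower and 1 was not called at day 25 against day 10, against 38.6% higher and 36.0% lower among all genes.

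Sialyltransferases, which add the sugar in α2,3, α2,6 or α2,8 linkage, moved in both directions within each class. At day 25 against day 10, 7 of 8 tested α2,6 enzyme genes were higher and 1 lower, 4 of 6 α2,3 genes were higher and 2 lower, and 3 of 6 α2,8 genes were higher and 2 lower, with 1 not called. Among all tested genes 38.6% were higher and 36.0% lower, and the median log2 fold change was 1.51, 1.04 and 0.82 for these classes against 0.02. Among α2,3 genes, ST3GAL6 rose 9.01-fold, ST3GAL1 2.88-fold and ST3GAL5, the ganglioside GM3 synthase, 6.41-fold. ST3GAL5 alternated, with 17.1 ± 1.98, 139 ± 4.21, 31.0 ± 0.865 and 109 ± 2.97 CPM on the 4 days (SD, n = 3). Among α2,8 genes, ST8SIA4, a polysialyltransferase, rose from 6.36 ± 0.0645 to 68.2 ± 1.44 CPM while ST8SIA6 fell from 117 ± 6.82 to 7.91 ± 0.302 CPM. ST8SIA3 reached only 2.07 ± 0.421 CPM. The 3 α2,6 genes with the largest change were all low, ST6GALNAC1 going from 3.14 ± 0.188 to 0.101 ± 0.0455 CPM. ST6GALNAC2 and ST6GALNAC5 reached 1.82 ± 0.731 and 1.51 ± 0.0355 CPM. The highest α2,6 gene on every day was ST6GAL1, at 66.8, 392, 47.8 and 187 CPM on the 4 days.

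Of 7 genes for proteins that carry Siglec ligands, 6 were higher and 1 lower at day 25 than at day 10 (4 and 1 with library size alone), against 38.6% and 36.0% of all tested genes. CD24, bound by the SIGLEC10 receptor, stood at 41.5 ± 1.89, 162 ± 3.85, 210 ± 6.43 and 188 ± 2.15 CPM on the 4 days. It was highest at day 20, as SIGLEC10 was, and fell by 0.16 on the log2 scale in the last step (edgeR adjusted p = 0.00081) where SIGLEC10 fell by 1.19. CD52, another glycoprotein bound by that receptor in soluble form, rose in each step and stood at 229 ± 2.85 CPM at day 25, 33.6-fold above day 10. The sialomucin gene PODXL rose 85.4-fold from day 15 to day 20, to 678 ± 21.1 CPM, and then fell 2.39-fold.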

How the data were processed

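The authors deposited raw read counts per Ensembl gene ID and library, not normalised, per the file headers and the values. GRCh38 is the genome build that the submitters' processing notes name. Which aligner, counter, annotation and strand setting were used is not given in the sources used here. A gene-name table gave symbols for 25321 of 36601 IDs, and the rest held 0.44% of counts. Gene models and windows came from GENCODE release 29.

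The tests ran under R 4.3.3, using edgeR 4.0.16. filterByExpr (minimum count 10) kept 20183 genes, TMM factors ran from 0.753 to 1.172, and all 12 libraries entered 1 robust quasi-likelihood fit with day as the only factor. P-values were Benjamini-Hochberg adjusted over all genes tested, and calls made at 0.05. The SE is the log2 fold change divided by the square root of F, and 95% intervals use the normal distribution. A floor of 3 counts is 0.0723 to 0.145 CPM per library and covers counting error only. Text tables and figures used Python 3.11.15, pandas 2.3.3, numpy 2.4.6 and matplotlib 3.10.9.

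The members, gene lists and tests were chosen with earlier results of these data known. Named genes were the 9 members, other Siglec genes, up to 3 genes per pathway list with the largest called change of day 25 against day 10 at 1 CPM or more, and the 2 genes closest in course to each member (log2 CPM, prior count 2). A few further genes of the pathway lists are named for their level, change or role. Some genes that this rule or a marker list gives are not reported here. Alternatives were DESeq2 1.42.0 and its size factors, library size alone, 2 other filters, limma-voom (limma 3.58.1), a replicate block, fits to the compared days alone, other thresholds, transcript length and leaving out each library.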

Additional observations from a re-analysis of the deposited data

How the results depend on the processing

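Of 720 log2 fold changes of members recomputed under an alternative, 707 kept their direction and their side of the threshold, 8 lost the call, 3 gained it and 2 changed sign. Both sign changes were of CD33 with library size alone, to -0.26 at day 15 against day 10 and to -0.08 at day 25 against day 20. That scaling moved the median of all genes by -0.52, 0.62 and -0.16 on the log2 scale in the steps to days 15, 20 and 25. CD33 at day 15 also lost its call without a filter (0.07) and with the libraries of the compared days alone (0.09). The cause was not tested. Counts of called members stayed within 1.5 times in 193 of 196 cases. The exceptions were 1 member lower at day 15 against day 10 with library size alone (0 otherwise), and the counts of day 25 against day 20 at a minimum of 2-fold. These were 0 higher and 2 lower (4 and 4 in the same fit without that minimum), by the construction of the threshold. Leaving out single libraries gave 8 to 9 members higher at day 20 against day 15 and 3 to 4 higher at day 25 against day 20. With the replicate block the counts were 9 higher at day 15, 8 at day 20, 4 higher and 4 lower at day 25 against day 20, and 9 at day 25 against day 10, so the block changed no count of members. Deviations of the 18 same-numbered pairs correlated between -0.016 and 0.016. Whether same-numbered libraries share a culture cannot be told from this, since the deviations may be mostly technical. Using the longest transcript as the length changed the rank of a member within a day in 7 of the 36 cases, with the leading gene of each day kept. Depth limits SIGLEC11, SIGLEC15 and MAG most.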
